A study of Mus musculus with 12 samples.

Results

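Macrophages given KLA together with the peptide hBD3 were compared with macrophages given KLA alone. The comparison used the 3 KLA plus hBD3 arrays and the 3 KLA arrays, 6 of the 12 arrays of the series, each placed by its treatment label. The cells were bone marrow-derived macrophages (BMDM) of Balb/c mice, grown for 7 to 10 days in M-CSF at 20 ng/ml, and RNA was taken after 6 h of treatment. KLA is labelled at 50 ng/ml. The labels give no dose for the combined treatment and put hBD3 alone at 5 mg/ml, where the methods of the study give micrograms per ml. The other 6 arrays, 3 of untreated cells and 3 of cells given hBD3 alone, served as background and shared the estimate of spread. HBD3 stands in the titles of KLA replicates 2 and 3 as well, although their treatment labels and the headings of the signal table name KLA or LPS alone. The replicates of each group were described by the study as BMDM from separate mice.

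KLA (Kdo2-lipid A) is the membrane-anchoring core of bacterial lipopolysaccharide and binds Toll-like receptor 4 (TLR4) with its partners Cd14 and Ly96. TLR4 then signals through the adaptors Myd88 and Ticam1 (TRIF) to NF-kB, MAP kinases and interferon regulatory factors, which switch on genes for cytokines, chemokines and co-stimulatory molecules and switch off many genes of the resting macrophage. hBD3 is a human beta-defensin, a small cationic antimicrobial peptide made by epithelia.

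Signals are given as log2 of the quantile-normalised intensity, and a difference is KLA plus hBD3 minus KLA, so that a negative value is a lower level with hBD3. A probe was detected in an array where its signal exceeded that of the negative control beads at a detection p under 0.01. Between 12363 and 13571 probes were detected in the KLA arrays and between 12543 and 14644 in the KLA plus hBD3 arrays. The KLA plus hBD3 arrays correlated with each other at r = 0.989 to 0.992. KLA replicate 3 stood apart from KLA replicates 1 and 2 (r = 0.969 with each, against 0.993 between those replicates). In the hBD3 group, replicate 1 carried higher levels of inflammatory genes than replicates 2 and 3, which widened the shared spread of those genes. All 9 macrophage markers with a probe were detected in every array, with summed signals of 39008 to 49000 in the KLA arrays and 48378 to 56002 in the KLA plus hBD3 arrays. No T cell, NK cell, erythroid or mast cell marker was detected throughout either group. Of 7 B cell markers Blnk alone was detected throughout both groups, and the sums were 476 to 724 under KLA and 639 to 730 with hBD3. Among 10 neutrophil markers only S100a8 and Camp were detected, with summed marker signals of 936 to 1447 under KLA and 728 to 886 with hBD3 added. Among 12 stromal markers 4 were detected in every KLA array and 2 in every KLA plus hBD3 array, with sums of 1323 to 1628 and 1026 to 1357. Of 9 dendritic cell markers Batf3 was detected in every array, and the sums were 665 to 783 under KLA and 530 to 557 with hBD3. The part of such cells in the results was not tested, and in cultures measured in bulk, fewer cells of a type and less RNA per cell cannot be told apart.

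Adding hBD3 to KLA changed 3165 of 45281 probes, or 6.99%, by limma with Benjamini-Hochberg adjustment over all probes at an adjusted p under 0.05. Of these probes 1587 were higher with hBD3 (3.5% of those tested) and 1578 were lower (3.48%). Each gene was then read from its brightest probe, and a gene entered where KLA or KLA plus hBD3 had it detected throughout, which held for 7513 genes. Of these genes 1994 were called (26.5%), 1076 of them higher (14.3%) and 918 lower (12.2%). The median difference over the 7513 genes was 0.01. The falls reached further than the rises, with 260 genes lower and 242 genes higher by at least 2-fold but 43 genes lower and 11 genes higher by at least 4-fold. A gene was counted as left alone where it was detected in all 6 arrays and the 95% confidence interval of its difference lay within 0.5 of zero on the log2 scale. By that measure, which reads only the brightest probe of a gene, hBD3 left alone 2412 of 6643 genes (36.3%). A further 3127 genes were neither called nor placed within that interval.

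**Figure D1:**
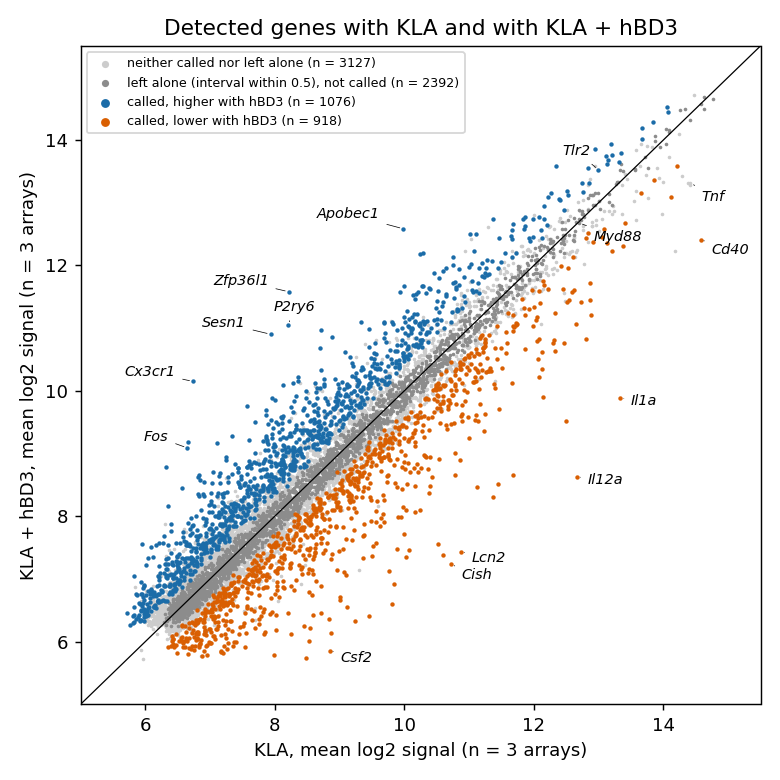
Mean log2 signal of each of the 7513 detected genes in the 3 KLA arrays (horizontal axis) and the 3 KLA plus hBD3 arrays (vertical axis), coloured by whether the gene was lower (918), higher (1076) or left alone (2412). Of the genes left alone 20 were also called, with small differences and small errors, and the point farthest from the diagonal, Il12a, lies below it.

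The largest fall was that of Il12a, the p35 subunit of the T helper cell-polarising cytokine IL-12. Its log2 signal was 12.74, 12.29 and 12.97 in the KLA arrays and 8.52, 8.81 and 8.56 with hBD3 added. Every array with hBD3 lay far below every KLA array, yet above the untreated mean of 5.80. The difference of -4.04 (SE 0.40, n = 3 per group, adjusted p = 6.32e-05, limma) is a level 16.4-fold lower. Cish, a SOCS-family inhibitor of cytokine receptor signalling, read 11.11, 10.25 and 10.80 under KLA and 7.50, 7.27 and 6.93 with hBD3. Its groups were well separated and the level was 11.2-fold lower (difference -3.49, SE 0.21, adjusted p = 3.51e-06). Il1a, the cell-associated form of interleukin-1, read 14.03, 13.55 and 12.42 under KLA and 9.99, 9.98 and 9.67 with hBD3. The KLA arrays were uneven, with replicate 3 the lowest, but none reached the range with hBD3 added. The difference of -3.45 had an SE of 0.68 (adjusted p = 0.0079), and this call was lost when the background was modelled from the detection p-values before normalisation (adjusted p = 0.062). Lcn2, which encodes the siderophore-binding protein lipocalin 2, read 10.26, 11.10 and 11.24 under KLA and 7.24, 7.67 and 7.39 with hBD3, a fall of 10.8-fold to near the untreated mean of 6.62.

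The remaining leading falls covered further secreted and enzyme genes. Hdc, the histamine-forming decarboxylase, fell 9.33-fold at its brightest probe (difference -3.22) and by 1.63 on the log2 scale at its other probe. Both Adamts4 (8.24-fold), an aggrecan-cleaving protease, and the collagenase gene Mmp13 (8.1-fold) were lower in every array with hBD3. In Il4i1, a secreted amino acid oxidase, the difference was -2.98, and in Slc7a2, a transporter of arginine, it was -2.93. Gfi1, a transcriptional repressor, had a difference of -2.93, Shisa3 of -3.21 and AA467197 of -2.96.

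The largest rise was that of Cx3cr1, the receptor for fractalkine and a marker of resting tissue macrophages and monocytes. Its signal was 6.74, 6.79 and 6.68 under KLA and 10.37, 9.78 and 10.30 with hBD3, against an untreated mean of 10.97. The gene was low in every KLA array, and all arrays with hBD3 lay above them and just below resting cells. The level was 10.7-fold higher (difference 3.41, SE 0.17, adjusted p = 7.29e-07, limma). Zfp36l1, which encodes a zinc finger protein that promotes decay of AU-rich mRNAs, read 8.16, 8.22 and 8.26 under KLA and 11.43, 11.46 and 11.85 with hBD3. Its arrays agreed closely within each group and the level was 10.3-fold higher (difference 3.37, SE 0.13, adjusted p = 1.78e-07). Sesn1, a stress-induced restrainer of growth signalling, rose 7.82-fold. P2ry6, a receptor for extracellular UDP, rose 7.17-fold and Apobec1, a cytidine deaminase that edits mRNA, rose 6.06-fold. Fos, a subunit of the transcription factor AP-1, read 6.59, 6.72 and 6.63 under KLA and 8.87, 8.84 and 9.56 with hBD3. It was the only immediate early gene among the leading rises (5.43-fold, adjusted p = 7.93e-06). Further leading rises were St6gal1, a sialyltransferase (difference 2.52), Gpr162 (2.47, detected in 2 of 3 KLA arrays), Ypel3 (2.25), Tmem86a (2.18), the interleukin-6 receptor gene Il6ra (2.06), Lpxn (1.98) and Tpcn1, an ion channel of endosomes and lysosomes (1.95). At dimmer probes the differences were smaller for Zfp36l1 (1.92), for the dimmest of 3 Sesn1 probes (1.03) and for Il6ra (1.43 and 0.69, neither of which passed the test). Tgfbi, which encodes a secreted matrix protein induced by TGF-beta, ended above resting cells, at 10.65, 10.83 and 11.11 with hBD3 against 8.92, 8.96 and 8.78 with KLA and a mean of 10.07 untreated (difference 1.97, adjusted p = 8.24e-05).

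**Figure D2:**
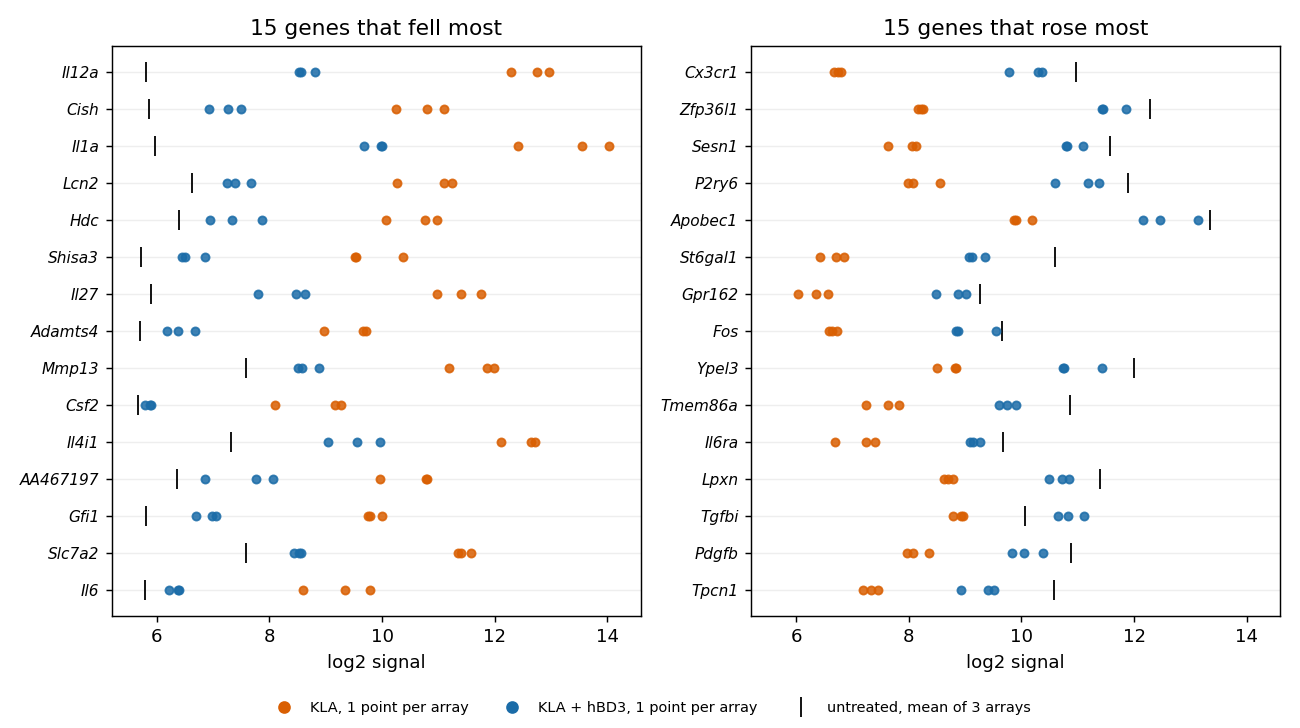
Log2 signal of the 15 genes with the largest falls (left) and the 15 with the largest rises (right), with a point for each array of KLA and of KLA plus hBD3 and a mark for the untreated mean. In each gene drawn the KLA arrays and the KLA plus hBD3 arrays do not overlap, as in 3602 of the 7513 detected genes (47.9%), and Tgfbi is a rise that ended above the untreated mean.

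The sequences from 250 bases before to 50 bases after the transcription start are shown for 3 of the leading falls and 2 of the leading rises, as the promoters of those genes that held a motif searched for here. They were taken from RefSeq on mouse build GRCm38.p6 and are written 5′ to 3′ on the strand of the gene. Capitals mark the AP-1 site TGANTCA in all of them and, in Mmp13, also the core of the interferon-stimulated response element (GAAA, any pair of bases, GAAA), which lies on the opposite strand. Counted from the start, with -1 the base before it, the site began at -12 in Il1a (chr2:129309923-129310222, minus strand), at -35 in Mmp13 (chr9:7272264-7272563, plus strand) and at -73 in AA467197 (chr2:122637637-122637936, plus strand). It began at -129 in Zfp36l1 (chr12:80112964-80113263, minus strand) and at -15 in St6gal1 (chr16:23290220-23290519, plus strand, 1 of 3 windows listed for that gene).
Il1a: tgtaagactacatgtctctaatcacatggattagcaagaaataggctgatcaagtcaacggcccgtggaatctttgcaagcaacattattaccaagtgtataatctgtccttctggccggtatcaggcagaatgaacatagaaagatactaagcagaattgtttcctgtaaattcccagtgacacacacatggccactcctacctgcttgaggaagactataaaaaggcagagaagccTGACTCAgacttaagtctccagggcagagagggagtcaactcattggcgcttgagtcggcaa
Mmp13: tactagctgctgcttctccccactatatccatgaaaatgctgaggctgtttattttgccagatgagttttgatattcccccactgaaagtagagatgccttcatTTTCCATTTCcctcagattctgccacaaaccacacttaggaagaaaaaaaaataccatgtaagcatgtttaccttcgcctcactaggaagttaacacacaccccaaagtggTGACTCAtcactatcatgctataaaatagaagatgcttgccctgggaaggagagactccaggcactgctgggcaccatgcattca
AA467197: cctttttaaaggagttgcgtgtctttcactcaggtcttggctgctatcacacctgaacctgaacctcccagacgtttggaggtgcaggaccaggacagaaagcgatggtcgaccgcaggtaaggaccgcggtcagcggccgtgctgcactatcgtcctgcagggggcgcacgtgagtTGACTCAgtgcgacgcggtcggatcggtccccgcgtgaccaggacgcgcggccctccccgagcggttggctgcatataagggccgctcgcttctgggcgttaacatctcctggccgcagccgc
Zfp36l1: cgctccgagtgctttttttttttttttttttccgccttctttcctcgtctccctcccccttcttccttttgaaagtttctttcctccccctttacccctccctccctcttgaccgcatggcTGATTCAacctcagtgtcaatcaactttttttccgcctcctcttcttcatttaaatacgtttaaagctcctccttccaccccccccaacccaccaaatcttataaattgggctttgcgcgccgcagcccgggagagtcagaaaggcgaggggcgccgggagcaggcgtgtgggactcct
St6gal1: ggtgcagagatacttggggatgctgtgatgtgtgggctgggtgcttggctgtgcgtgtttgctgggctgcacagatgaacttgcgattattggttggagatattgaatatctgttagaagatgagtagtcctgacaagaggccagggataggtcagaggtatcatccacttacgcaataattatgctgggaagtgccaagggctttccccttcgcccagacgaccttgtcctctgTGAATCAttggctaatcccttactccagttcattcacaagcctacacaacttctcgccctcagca

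Read as a description with no test, the AP-1 letters were in 8 of 35 promoters of the genes lower by at least 4-fold (22.9%) and in 2 of 9 promoters of the genes higher by at least 4-fold (22.2%). They were in 7.16% of the promoters of all lower genes, 6.81% of all higher genes, 4.71% of the genes left alone and 8.97% of the 27025 genes of the table. The cyclic AMP response element TGACGTCA was in 5.95% of promoters of lower genes, 2.04% of higher genes, 4.07% of the genes left alone and 2.03% of the table. The NF-kB consensus was in 12.3% of promoters of lower genes, 14.4% of higher genes, 11.9% of the genes left alone and 9.55% of the table. The interferon-stimulated response element core was in 5.81%, 2.95%, 3.52% and 3.99% of the same sets. Each of these other motifs was in 2 of the 35 promoters of genes lower by at least 4-fold (5.71%). Of the 9 promoters of genes higher by at least 4-fold, 1 held the NF-kB consensus (11.1%) and 0 held either of the others. Both strands were searched, and no motif of the set contains another.

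Most detected cytokine genes fell. Of 18 detected, 15 were lower and none was higher, with a median difference of -1.69. Over all detected genes 12.2% were lower and 14.3% were higher, with a median of 0.01. Counts of the lists below are to be read against the same shares. Csf2, Lif, Il6 and Il23a entered through the KLA arrays alone, as they were not detected throughout with hBD3. Members of this and the other lists were chosen with earlier results of these data known. Their counts and medians are therefore not independent evidence of a direction. Il6, the acute phase cytokine, read 9.33, 8.60 and 9.79 under KLA and 6.40, 6.22 and 6.38 with hBD3 (7.51-fold lower, adjusted p = 2.75e-05). The arrays with hBD3 added sat close together and well below the KLA range, and Il6 was detected in 2 of those 3. Csf2, which encodes the growth factor GM-CSF, read 9.16, 8.10 and 9.27 under KLA and was not detected in any array with hBD3, so that its level was at least 6.29-fold lower (adjusted p = 1.86e-05). Here "at least" sets the mean of the group with signal against the other group held at background, taking in each of its arrays the higher of the gene's own signal and the lowest signal of any detected probe, averaged over the 3 arrays. Il27, the p28 subunit of IL-27, read 11.75, 10.98 and 11.39 under KLA and 8.47, 8.64 and 7.80 with hBD3, a 8.42-fold fall. Its partner subunit Ebi3 fell by 1.71 and Il23a, the p19 subunit of IL-23, by 1.47, with Il23a detected in 2 of 3 arrays with hBD3. Further falls were those of Inhba (-2.47), the activin A subunit, Il18 (-2.05), Osm (-1.91), Tnfsf9 (-1.68), Csf1 (-1.60) and Il15 (-1.09). Ifnb1, the gene for interferon beta, read 8.34, 7.52 and 7.98 under KLA and 6.77, 6.39 and 6.27 with hBD3 and was 2.78-fold lower (adjusted p = 0.000441). Lif was detected in every KLA array and in none with hBD3 added (at least 1.18-fold lower), a call that was lost with median centring.

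The cytokine genes that did not pass the test were Tnf, Il1b and Il1rn, the IL-1 receptor antagonist. Tnf read 14.39, 14.42 and 14.44 under KLA and 13.24, 13.38 and 13.33 with hBD3. The groups did not overlap, as in 47.9% of all detected genes, and were each tight, with a difference of -1.10, but the adjusted p was 0.316 in the 12-array fit. In cells given hBD3 alone Tnf read 11.12, 9.31 and 8.21, and replicate 1 of that group widened the spread the test used. With the 6 arrays of the comparison alone the adjusted p for Tnf was 0.000485, and with hBD3 replicate 1 left out of the 12, a setting added after the data were seen, it was 0.00872. Among the cytokine and chemokine genes and Cd40, 11 were not called with 12 arrays, and 6 of those were called with the 6 arrays alone, by limma. They were Tnf, Il1b (difference -0.68, adjusted p = 0.00148), Cxcl1 (-1.07, 0.00539), Cxcl2 (-1.96, 0.00075), Ccl3 (-1.16, 0.00807) and Ccl4 (-1.13, 0.0252), named after their values were seen. Il1rn, at a difference of -0.60, passed neither test at its brightest probe. At dimmer probes of these genes Il1rn (-1.41), Cxcl2 (-3.54) and Ccl4 (-2.07) were called lower in the 12-array fit, whereas Tnf (-1.55) was not.

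Chemokine genes were divided. Of 14 detected, 5 were lower, 1 was higher and the median difference was -1.15, and with the 6 arrays alone 9 were lower. Ccl17, which draws CCR4-bearing T cells, read 8.94, 7.92 and 8.57 under KLA and was not detected in any array with hBD3 (at least 4.88-fold lower, adjusted p = 1.54e-05). Cxcl9, an interferon-inducible ligand of CXCR3, read 11.08, 10.70 and 11.20 under KLA and 9.69, 9.23 and 8.84 with hBD3 (3.34-fold lower). Ccl5 (RANTES) read 12.90, 12.78 and 12.95 under KLA and 11.79, 11.48 and 10.38 with hBD3. Replicate 3 was the lowest of the arrays with hBD3 added, all of which lay below the KLA arrays (difference -1.67, SE 0.32, adjusted p = 0.00657). The monocyte attractants Ccl7 (-1.34) and Ccl2 (-1.33, detected in 1 of 3 arrays with hBD3) fell, and Ccl6, a chemokine of resting myeloid cells, rose by 0.50, a call lost with median centring. Cxcl16, the membrane-bound ligand of CXCR6, was left alone at 0.24 (95% interval 0.04 to 0.44). Cxcl10, another CXCR3 ligand, was open at -0.35 (interval -1.48 to 0.77).

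**Figure D3:**
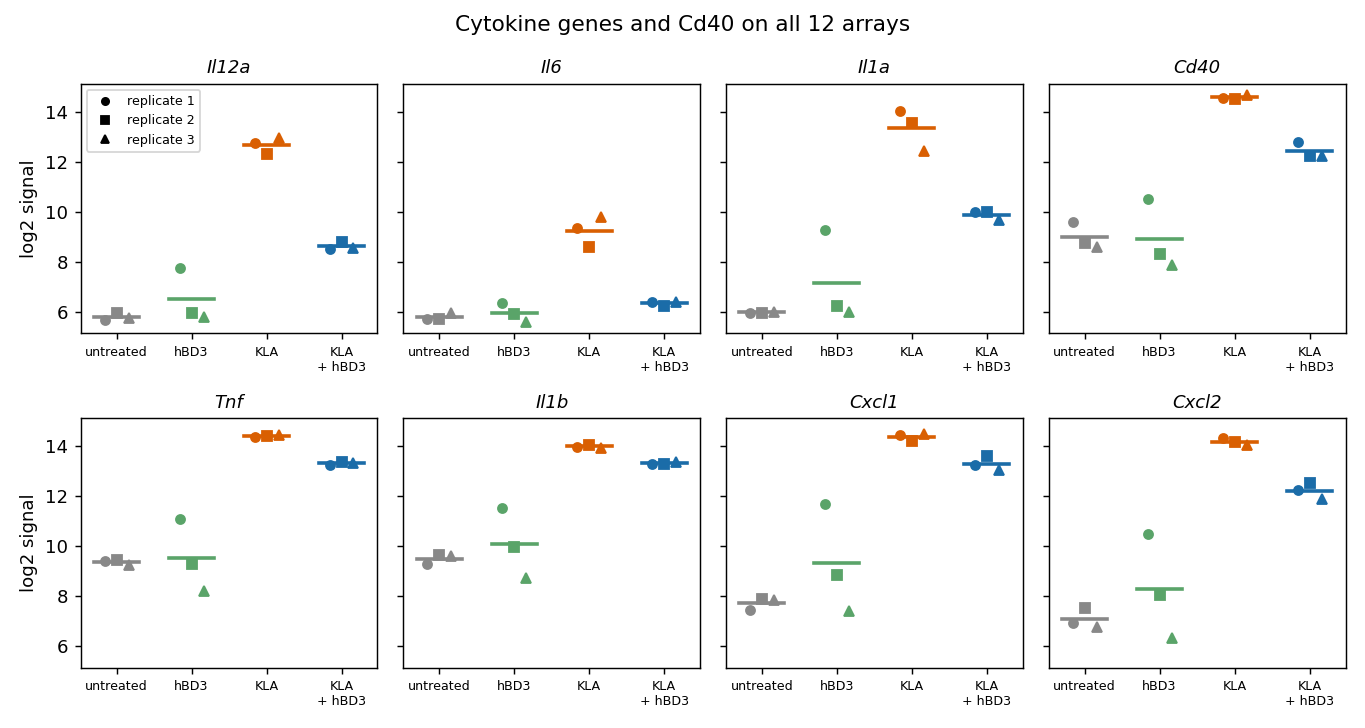
Log2 signal of Il12a, Il6, Il1a, Cd40, Tnf, Il1b, Cxcl1 and Cxcl2 in each array of the 4 groups, with a line at each group mean and a symbol for each replicate number. Tnf reads 14.39 to 14.44 in the KLA arrays and 13.24 to 13.38 with hBD3 added, while the arrays of hBD3 alone spread from 8.21 to 11.12.

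Effector genes, the enzymes and secreted proteins of an activated macrophage, fell more often than not. Of 27 detected, 16 were lower and 1 was higher, with a median of -1.01. Ptgs2 and Ptges, which act in succession in prostaglandin E synthesis, both fell. Ptges had a difference of -2.28, and Ptgs2 was detected in no array with hBD3 added (at least 2.03-fold lower). Nos2, the inducible nitric oxide synthase, fell by 1.49, with 1 of 3 arrays with hBD3 detecting it and the call lost with median centring, and Gch1, which supplies its tetrahydrobiopterin cofactor, by 1.01. Edn1 (endothelin, -2.65), F10 (coagulation factor X, -2.13), Plaur (urokinase receptor, -2.13), Serpinb2 (-1.68, detected in 2 of 3 arrays with hBD3), Saa3 (-0.73) and Gpr84 (-0.49) were also lower. Alox5ap, which presents substrate to the leukotriene-forming lipoxygenase, was the exception at 1.91. Mmp14, a membrane-anchored protease, was left alone at -0.15 although it was 13.16 under KLA against 11.67 untreated, as was the elastase Mmp12 at -0.09. Acod1, the itaconate-forming enzyme (-0.40), Sod2 (-0.18) and Ch25h (-0.29) did not pass the test.

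Co-stimulatory and checkpoint molecules were lower in 11 of 14 detected genes and higher in none, with a median of -1.02. Cd40, the receptor for T cell help, read 14.55, 14.50 and 14.67 under KLA and 12.79, 12.22 and 12.22 with hBD3. The groups were well separated, with a difference of -2.16 (SE 0.53, 4.47-fold lower, adjusted p = 0.0269, limma). At this brightest probe Cd40 read 10.49, 8.32 and 7.85 in the arrays of hBD3 alone, and its adjusted p ran from 0.0507 to 0.0995 when any 1 KLA or KLA plus hBD3 array was left out and was 0.000574 with the 6 arrays alone. Dimmer probes of Cd40, at -2.50, -1.94, -1.89 and -1.63, were also called lower in the 12-array fit. Cd86, the CD28 ligand, read 9.41, 9.05 and 9.55 under KLA and 8.64, 8.41 and 7.89 with hBD3 (2.03-fold lower, adjusted p = 0.00291). Slamf1, a homophilic receptor, read 8.21, 7.66 and 8.08 under KLA and was not detected with hBD3 (at least 3.47-fold lower, adjusted p = 7.93e-06). Vcam1, an adhesion molecule, fell 4.04-fold and Slamf7 2.97-fold. The checkpoint ligand Cd274 (PD-L1) fell by 0.98, Cd83 by 1.19, Cd69 by 1.42, Cd44 by 1.02, Icosl by 0.61 and Lilrb4a by 0.54. With median centring Cd40 (-2.37), Cd69 (-1.76), Icosl (-0.50) and Lilrb4a (-0.72) were not called. The list held 7 falls in that setting, with KLA replicate 1 alone, without KLA replicate 3 or without KLA plus hBD3 replicate 1. Icam1 (-0.37), Clec4e (-0.32) and Vsir (0.31) did not pass the test.

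Genes of the Toll-like receptor pathway went in both directions. Of 25 detected, 10 were lower, 5 were higher and 3 were left alone, with a median of -0.22. Among the receptors, Tlr1 (-0.91), Tlr6 (-0.82) and Tlr7 (-0.67) fell, whereas Tlr13, a sensor of bacterial ribosomal RNA, rose. Tlr13 read 9.17, 9.10 and 9.29 under KLA and 10.51, 10.20 and 10.64 with hBD3, short of the untreated mean of 11.51 (difference 1.26, adjusted p = 0.000963). Tlr2, the lipoprotein receptor, read 12.95, 12.97 and 13.07 under KLA and 13.34, 13.57 and 13.67 with hBD3, a rise of 0.53 (adjusted p = 0.00577). With median centring the Tlr2 difference was 0.18 and was not called, and neither were those of Tlr6 (-1.01) and Tlr13 (1.21). With KLA replicate 1 standing for the KLA group Tlr2 was not called either. The second probe of Tlr6, at 0.12, did not pass the test. Tlr4 itself read 8.65 under KLA and 9.16 with hBD3, and its difference of 0.51 did not pass the test (adjusted p = 0.0847). Its co-receptor Cd14 was left alone at -0.06 (95% interval -0.31 to 0.18), and Ly96 was open at -0.14.

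Downstream of the receptors, Myd88 was left alone. It read 12.63, 12.65 and 12.81 under KLA and 12.47, 12.86 and 12.70 with hBD3, with overlapping groups and a difference of -0.02 (95% interval -0.26 to 0.22). That holds for its brightest probe, and a dimmer probe read -0.41 (interval -0.71 to -0.10), which did not pass the test and lay partly outside the limit of 0.5. The adaptors Ticam1 (-0.86), Ticam2 (-0.52) and Tirap (-0.52) were lower. Of the kinases that follow Myd88, Irak2 read 11.62, 11.73 and 11.74 under KLA and 11.01, 11.06 and 10.97 with hBD3 and fell (difference -0.68, SE 0.09, adjusted p = 0.000732), while Irak1 rose by 0.78. Both calls hold for the brightest probe. Dimmer probes of Irak2 (-0.58 and -0.49) and of Irak1 (0.02 and 0.24) did not pass the test. The inhibitory family member Irak3 (IRAK-M) fell by 1.11. The ubiquitin ligase Traf6 (-0.68) and the ERK-activating kinase Map3k8 (-1.25) fell, and Tab1 (0.52) and Ly86 (0.91), the partner of the TLR4 homologue Cd180, rose. The kinase Tbk1 was left alone at -0.22. When log2 signals were centred on the median of each array in place of quantile normalisation, the list held 1 rise, with Irak1, Tab1, Tirap and Traf6 no longer called, and with KLA replicate 1 standing for the KLA group it held 5 falls.

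**Figure D4:**
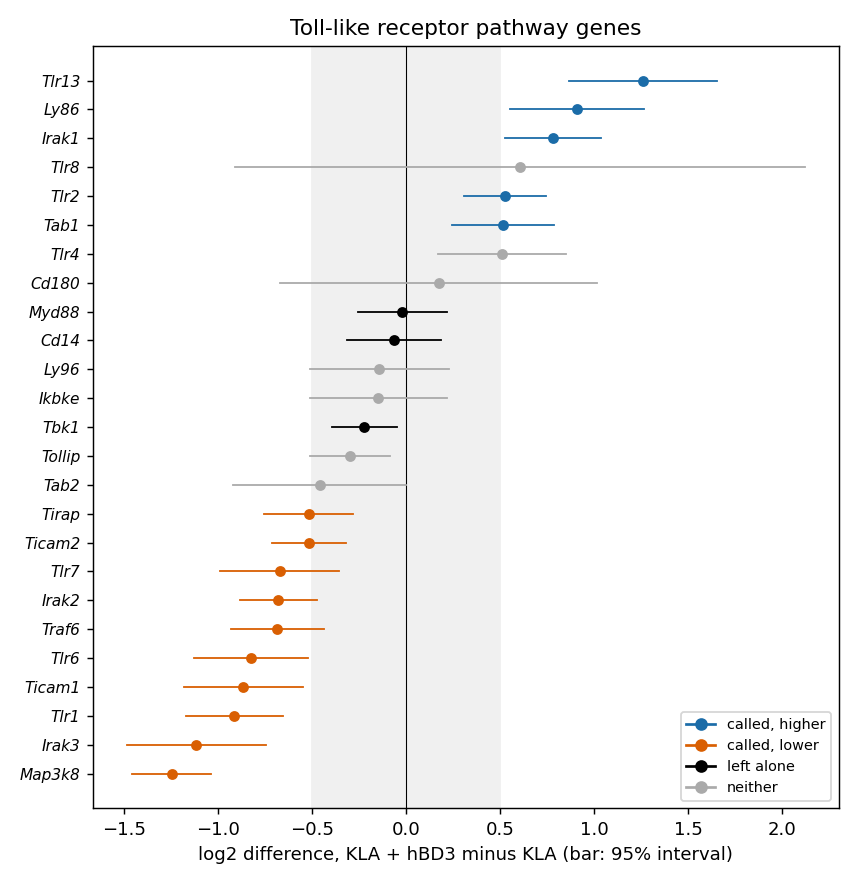
Difference in log2 signal (KLA plus hBD3 minus KLA, with the 95% confidence interval) for the 25 detected genes of the Toll-like receptor pathway, coloured by call. The points run from Map3k8 at -1.25 to Tlr13 at 1.26, and Myd88 lies at -0.02.

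Of 19 detected NF-kB subunits and regulators, 7 were lower, none was higher and 5 were left alone, with a median of -0.27. Rela, the main activating subunit, read 11.65, 11.80 and 11.79 under KLA and 11.62, 11.71 and 11.64 with hBD3, overlapping groups with a difference of -0.09. Cyld (-0.06), Bcl3 (0.13), Ikbkg (-0.26) and Traf2 (-0.20) were likewise left alone, although a dimmer probe of Ikbkg was called lower (-0.70). The subunit Rel fell by 1.23. Zc3h12a, which encodes the cytokine mRNA-degrading nuclease Regnase-1, read 9.48, 9.63 and 9.76 under KLA and 7.86, 8.12 and 7.54 with hBD3, a 3.45-fold fall (adjusted p = 2.78e-05). Nfkbiz, a nuclear co-activator for secondary genes such as Il6, fell 2.83-fold, and Tnfaip3 (A20), which ends NF-kB signalling, 2.4-fold. Traf1 (-1.27), Nfkbib (-1.26) and Nfkbid (-0.92) were also lower. Nfkbia, the classical inhibitor, did not pass the test at -0.45, and its dimmer probe was called lower (-0.87).

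Feedback inhibitors of cytokine receptors and MAP kinases fell alongside, with 8 of 19 detected genes lower and 2 higher (median -0.67). Over all detected genes 12.2% were lower and 14.3% were higher. Socs3, the inhibitor of IL-6 receptor signalling, read 12.77, 12.74 and 12.92 under KLA and 11.07, 10.82 and 10.57 with hBD3. The arrays with hBD3 added were all lower by more than 1 log2 unit but stayed above the untreated mean of 7.52 (3.96-fold lower, adjusted p = 5.58e-05). The phosphatase Dusp2 fell 4.76-fold, and Dusp8 (-1.48), Dusp5 (-1.35), Dusp16 (-1.10), Socs2 (-1.42, detected in 2 of 3 arrays with hBD3) and Socs5 (-0.57) fell less. Dusp6, specific for ERK, rose by 0.81, the other rise being Zfp36l1. The calls of Socs5 and Dusp6 were lost with median centring. Dusp1 (0.37) and Zfp36 (-0.20), the founding member of the Zfp36 family, did not pass the test. Among 18 immediate early genes, 6 fell and 2 rose, the rises being no larger a share than the 14.3% of all genes. The falls were led by Phlda1 (3.89-fold), Ier3 (3.09-fold) and Gadd45b (3.06-fold), and Klf2, a transcription factor of quiescent cells, rose with Fos at 1.23. The stress-induced repressor gene Atf3 was left alone at -0.02.

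Interferon-stimulated genes mostly did not pass the test. Of 30 detected antiviral genes 4 were lower, a share near the 12.2% of all genes, and none was higher, with a median of -0.35. The falls were those of Trim25, a ubiquitin ligase of RIG-I signalling (10.93, 10.77 and 11.25 under KLA and 9.56, 9.46 and 9.70 with hBD3, adjusted p = 3.78e-05), Oasl1 (-1.24), Trim21 (-0.92) and Parp14 (-0.49). Isg15, a ubiquitin-like modifier, had a difference of -1.06 (95% interval -1.70 to -0.42) that did not pass, and Ifit3 one of 0.29 (-0.48 to 1.05). The number of falls was 2 with median centring and 8 when only detected probes were tested. Of 8 guanylate-binding proteins and related GTPases, Gbp5 (3.8-fold) and Gbp2 (1.53-fold) fell, though members of this family share sequence and their probes may cross-react. The fall of Gbp2 was not seen at its second detected probe (0.12), and its call was lost with median centring, as were those of Trim21 and Parp14. In the JAK-STAT group of 19, Stat5a (-1.44), Jak2 (-0.90), Stat4 (-0.74, detected in 2 of 3 arrays with hBD3) and Jak1 (-0.69) fell. Ifngr1, a chain of the interferon gamma receptor, rose by 1.48. Over all genes 12.2% were lower and 14.3% were higher. Irf3, which carries the TRIF signal to Ifnb1, was left alone at -0.04.

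Genes of macrophage identity were called higher more often than lower. Of 19 detected, 8 were higher and 1 was lower, against 14.3% and 12.2% of all genes, with a median of 0.64. Fcgr1, the high-affinity IgG receptor, read 8.34, 8.03 and 8.62 under KLA and 10.26, 10.01 and 9.50 with hBD3, all above the untreated mean of 9.31 (3.02-fold higher, adjusted p = 0.000202). The chains of complement C1q rose together, C1qa by 1.50, C1qc by 1.27 and C1qb by 0.95. Csf1r, the M-CSF receptor (0.89), Trem2 (0.98), a lipid-binding receptor, and Aif1 (1.03) also rose. Mertk, a receptor for apoptotic cells, fell by 0.63, and the transcription factor gene Cebpb was left alone at 0.04. With median centring, and without KLA replicate 1 or KLA plus hBD3 replicate 2, the list held 5 rises. C1qb (0.81), Csf1r (0.70), Trem2 (0.75) and Mertk (-0.65) were not called with median centring.

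A list of alternative activation markers and growth factor genes held 8 rises and no fall among 13 detected members (median 0.81). The rises were mostly of growth factors and their receptors. The classical markers Arg1, Retnla, Chil3 and Clec10a were not detected throughout either group, and Klf4, a transcription factor of that programme, had a difference of -1.03 that did not pass the test (adjusted p = 0.0708). Pdgfb, a platelet-derived growth factor chain, rose 3.88-fold. Pparg, a lipid-sensing nuclear receptor that opposes inflammatory transcription, read 6.63, 7.20 and 7.19 under KLA and 8.33, 8.38 and 8.41 with hBD3 (2.58-fold higher, adjusted p = 0.00014). Both Gas6 (2.42-fold), the ligand of Mertk and Axl, and Tgfbr2 (2.38-fold) rose, followed by Stab1 (1.06), Igf1 (0.88), Tgfbr1 (0.81) and Vegfb (0.48). Mrc1, the mannose receptor, did not pass the test at 0.30. With KLA replicate 1 standing for the KLA group the list held 5 rises, and with median centring Tgfbr1 (0.61) and Vegfb (0.45) were not called.

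The set linked to FOXO factors and growth restraint held 10 rises and 1 fall among 16 detected genes, with a median of 0.56, or 0.42 with 2 genes undetected in the KLA arrays set at their bound. Zfp36l1, Sesn1 and Ypel3 led it, and all of these were among the largest rises of the comparison. Members of this list were chosen with earlier results of these data known. Its count and median are therefore not independent evidence of a direction. Bcl6, a repressor of inflammatory genes, read 8.90, 9.16 and 9.20 under KLA and 10.64, 10.32 and 10.88 with hBD3 (2.88-fold higher, adjusted p = 9.21e-05). Tsc22d3 (GILZ), a glucocorticoid-induced inhibitor of inflammation, rose by 1.45, and Trp53inp1 by 0.87. The factor genes themselves did not rise, with Foxo3 left alone at -0.05 and Foxo1 at 0.29, a difference that did not pass the test. Irs2, an insulin receptor substrate, fell by 0.48. With median centring the list held 5 rises, with neither Trp53inp1 (0.90) nor Irs2 (-0.34) called.

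Receptors for nucleotides and lipids rose in 6 of 10 detected members, with 2 lower and a median of 0.98. P2ry6 read 8.08, 7.98 and 8.55 under KLA and 10.59, 11.18 and 11.37 with hBD3, against 11.88 untreated. Cnr2, the cannabinoid receptor of immune cells, was not detected in any KLA array and read 7.38, 7.53 and 7.75 with hBD3 (at least 2.45-fold higher, adjusted p = 1.96e-05). S1pr2 (1.40), P2rx4 (1.23), Lpar6 (1.22) and Cysltr1 (0.73) rose, and P2ry1 (-0.60) and Ptafr (-0.57), the receptor for platelet-activating factor, fell. The second probe of Ptafr, at 0.28, did not pass the test. With median centring P2rx4 (1.08), Cysltr1 (0.76), P2ry1 (-0.44) and Ptafr (-0.56) were not called. Of 4 detected receptors proposed for hBD3, the chemokine receptor gene Cxcr4 read 7.57, 8.02 and 8.40 under KLA and 9.59, 9.86 and 10.11 with hBD3 (3.62-fold higher, adjusted p = 0.000194), and the other members were Tlr1, Tlr2 and Tlr4, given above. Fc and scavenger receptors split into 5 rises and 4 falls among 22, against 14.3% of all detected genes higher and 12.2% lower. Fcgr2b, the inhibitory IgG receptor, fell 3.25-fold while the activating receptors Fcgr1 and Fcgr3 (1.21) rose. Fcgr4, also an activating receptor, did not pass the test at 0.24. Itgav (-1.48) and Trem3 (-1.31) fell as well, and Axl (-0.18) and Clec4d (0.18) were left alone.

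Lysosomal genes were higher in 15 of 31 detected members and lower in none, with 9 left alone, 1 of them also called, and a median of 0.47. The rises were small apart from Tpcn1. Gusb, a glycosidase, rose by 0.91, Lipa, which hydrolyses cholesteryl esters, by 0.77, Hexa by 0.75 and Lamp1 by 0.63. Tfeb, a transcription factor for lysosomal genes, was detected in no KLA array and in all arrays with hBD3 added (at least 1.39-fold higher). Ctsz (-0.06), Ctsd (0.15) and Npc2 (-0.09) were left alone. LXR targets and lipid-handling genes showed 6 rises and 1 fall among 12 (median 0.64), led by the cholesterol exporter Abcg1 (7.78, 7.91 and 8.65 under KLA and 9.06, 9.63 and 9.75 with hBD3, adjusted p = 0.0207), with Lpl at 0.75 and Nr1h3, the LXR alpha gene, at 0.62, while Fabp5 fell by 0.76. These calls depended on the scaling of the arrays. With median centring the lysosomal list held 1 rise and the LXR list none, and with KLA replicate 1 standing for the KLA group they held 8 and 3.

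**Figure D5:**
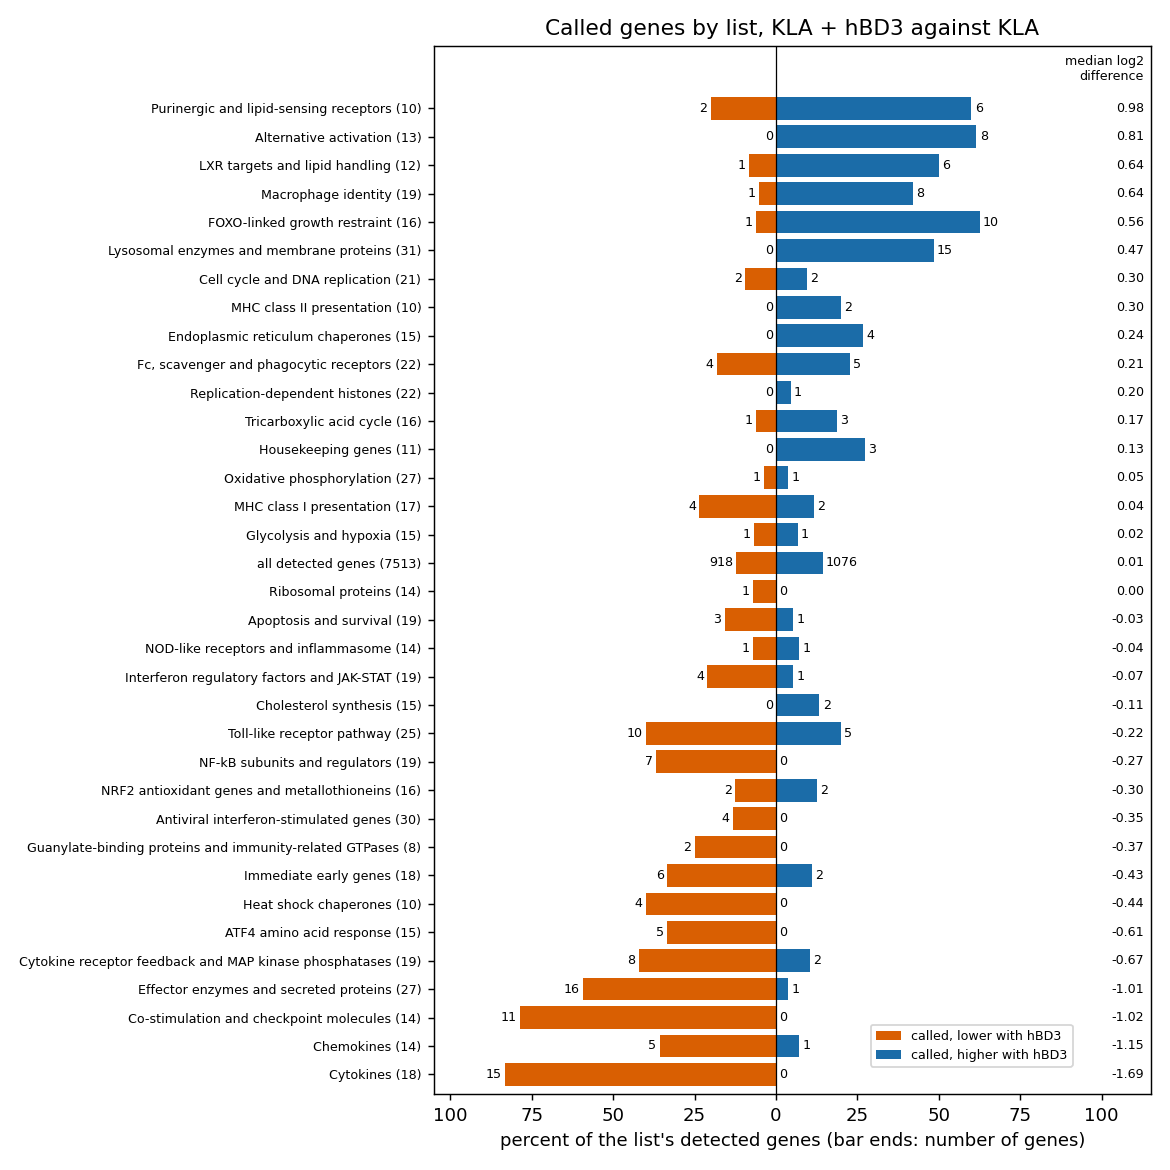
Percent of the detected genes of each list that were lower (bars to the left) or higher (bars to the right) with hBD3, with the number of genes at the bar ends, the median log2 difference at the right and all 7513 detected genes as a row of their own. Cytokines (15 of 18), co-stimulatory molecules (11 of 14) and effector genes (16 of 27) lie to the lower side. FOXO-linked genes (10 of 16), alternative activation (8 of 13) and purinergic and lipid-sensing receptors (6 of 10) lie to the higher side. Members and lists were chosen with earlier results of these data known.

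The genes left alone included much of the basic machinery of the cell. Of 27 detected genes of oxidative phosphorylation 16 were left alone, 1 was higher and 1 was lower, with a median of 0.05. Atp5b, an ATP synthase subunit, differed by -0.21 and Cox4i1 by 0.18, while Ndufb8 rose (0.49, a call lost with median centring) and Cycs, the cytochrome c gene, fell (-0.42). Among 14 ribosomal protein genes 8 were left alone and Rpl4 fell by 0.49, a call also lost in that setting. Rplp1 read 14.77, 14.70 and 14.84 under KLA and 14.77, 14.77 and 14.42 with hBD3, with overlapping groups. Of the housekeeping genes 5 of 11 were left alone, among them Actb (0.15) and Gapdh (-0.00). Dimmer probes of Actb read 1.29 (95% interval -0.87 to 3.45) and -2.04 (-4.84 to 0.77). Neither passed the test, and both intervals lay partly outside the limit of 0.5, so that Actb was left alone at its brightest probe only. Hprt (0.57), Gusb and Tfrc (1.18) rose, calls that were all lost with median centring. Inflammasome genes were left alone in 4 of 14, a smaller share than the 36.3% over all genes, with Casp1 (0.02) and Gsdmd (-0.13) among them. At dimmer probes Gsdmd was called lower (-0.53) or did not pass the test (0.55). In the same set Pycard, the adaptor, was higher by 0.48 and Mefv was lower by 0.55, and neither was called with median centring. Nlrp3, the inflammasome sensor, was open at -0.77 (95% interval -1.95 to 0.42).

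Antigen presentation showed single changes within sets that mostly did not pass the test. Over all detected genes 14.3% were higher and 12.2% were lower. Among 10 MHC class II genes the rises were those of H2-DMa, which loads peptides (1.42), and Ifi30, a lysosomal thiol reductase (1.30), with Cd74 at 0.06 and H2-Ab1 at 0.27, neither of which passed. Of 17 class I genes 2 rose and 4 fell, the largest fall being that of the peptide transporter Tap2 (11.05, 11.02 and 11.15 under KLA and 10.44, 10.28 and 9.68 with hBD3, adjusted p = 0.00373). H2-T23 (0.04) and B2m (0.22) were left alone. In the apoptosis set Mcl1, a survival factor, rose by 0.83, and Bcl2a1d (-1.10), whose probe may also read its near-identical paralogues, Tnfrsf1b (-0.96) and Bcl2l2 (-0.51) fell. With median centring Mcl1 (0.62) and Bcl2l2 (-0.60) were not called.

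Metabolic and stress genes added a few larger changes. Slc7a11, the cystine importer of the NRF2 set, read 11.87, 12.10 and 12.26 under KLA and 10.16, 10.36 and 10.14 with hBD3 (3.62-fold lower, adjusted p = 8.77e-06), while Hmox1 (-0.24) and Prdx1 (0.21) of the same set were left alone. In the ATF4 amino acid response 5 of 15 genes fell, led by the biosynthetic enzymes Psat1 (-1.06), Asns (-0.96) and Shmt2 (-0.77), and Atf4 itself did not pass the test at -0.16. Heat shock genes fell in 4 of 10, Hspa1a (-1.37), Hspa4l (-1.24), Hsp90aa1 (-0.98) and Dnajb1 (-0.46), with Hspa8 left alone at 0.16. Dimmer probes of Hspa8 read 1.31 and -0.42 and did not pass the test. Endoplasmic reticulum chaperones rose in 4 of 15, led by Sdf2l1 (1.28) and Pdia4 (0.76). With median centring these lists held 3 falls, 2 falls and 1 rise. In the tricarboxylic acid cycle Idh1 rose (9.74, 9.55 and 9.08 under KLA and 10.60, 10.42 and 11.08 with hBD3, adjusted p = 0.00164), and in glycolysis Pkm rose by 0.91 and the glucose transporter gene Slc2a1 fell by 0.67. The other detected probe of Pkm read -0.06 and did not pass the test. Cholesterol synthesis held 2 rises among 15, Ebp (0.72) and Dhcr7 (0.54), a share near the 14.3% of all genes. With median centring Idh1 (1.16), Pkm (0.64), Ebp (0.78), Dhcr7 (0.56) and Cdca8 (0.62) were not called. Among 21 cell cycle genes Ccnd2, a G1 cyclin, read 10.66, 9.13 and 9.85 under KLA and 8.20, 7.38 and 6.86 with hBD3 (5.29-fold lower, adjusted p = 0.00622), Tyms fell by 1.34, and E2f1 (0.56) and Cdca8 (0.55) rose. Of 22 histone genes H1f2 alone passed the test, at 1.39.

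The 10 genes that the study itself brought forward are Tnf, Il6, Il12a, Ccl5, Cd40, Cd86, Ifnb1, Tlr2, Myd88 and Irak2. Of these, 7 were lower, Tlr2 was higher, Myd88 was left alone and Tnf did not pass the 12-array test, with a median of -1.29. Since the study chose some of them on these arrays, the count is not independent evidence of a direction. The study named Tlr2, Myd88 and Irak2 at an earlier time after LPS, on another array type. Its TNF-alpha and interferon beta results were of protein. It also measured IL-6, IL-12p40, RANTES, CD40 and CD86 as protein, and matched IL-12p40 to Il12a, which encodes another subunit. At 6 h the study described many components of Toll-like receptor signalling as still lowered by hBD3. In the 6 h arrays Irak2 was lower (-0.68), Tlr2 was higher (0.53) and Myd88 was left alone (-0.02). The values here are of RNA after 6 h of KLA, and no like-for-like comparison with the protein or earlier results was made.

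Without KLA few probes passed the test. Against untreated cells, hBD3 alone called 2 of 45281 probes (0.00442%), 1 in each direction, by limma, and 3309 probes had an unadjusted p under 0.05. The effect of hBD3 with KLA differed from its effect without KLA for 1542 probes (3.41%), 753 higher and 789 lower, and for 1033 of the detected genes (13.7%). Without hBD3 replicate 1 the count was 1131 probes. The summed stromal marker signal ran from 1135 to 14034 in the arrays of hBD3 alone, and its part in these counts was not tested. Of those genes 902 were detected in every array without KLA. In 71, all with a negative difference between the effects and Il12a, Cish and Il1a among them, no untreated array detected the gene, so that a fall without KLA could not have been measured there. In Cx3cr1, picked for its rise with KLA, the difference between the effects was 3.45 (SE 0.24, adjusted p = 3.76e-05), with means of 10.94 and 10.97 in the cells without KLA. Not every change with KLA passed this test. For Ccl5 the adjusted p was 0.197, for Irak3 0.123 and for Cd40 0.222, so that a different effect of hBD3 with and without KLA was not shown for these genes.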

How the data were processed

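RNA of 12 BMDM cultures in 4 groups of 3 was measured on Illumina MouseWG-6 v2 BeadChips. The authors exported probe intensity values before normalisation with a detection p-value for each probe and array, and deposited intensity values after quantile normalisation across the 12 arrays, on a linear scale, made with beadarray. The versions were not stated. Each column before normalisation, quantile normalised here, equalled 1 sample of the same group within 0.1% at every probe, which tied detection to the normalised signals. Of 45281 probes 34885 named a single gene, 18 several and 10378 none, and 19057 genes had such a probe. The RefSeq table held the gene identifier of 34807 of those single-gene probes.

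Log2 of the normalised intensity was fitted by group with limma 3.58.1 in R 4.3.3 over the 12 arrays (8 residual and 3.66 prior degrees of freedom), two-sided, with Benjamini-Hochberg adjustment over all probes. The script was tested on simulated data. The number of arrays limits the precision. The p-values set a group difference against the spread between samples, pooled over the 4 groups.

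Named were the 15 largest falls and rises among called genes, up to 4 members of each list and up to 2 left alone per list, and the genes the study brings forward. Further members were named after their values were seen. Members and lists were chosen with earlier results of these data known. Of the listed genes 70 had no probe. Alternatives were median centring, neqc background correction, the 6 arrays alone, detected probes only, array weights, a replicate block, other intervals and probes, and leaving out arrays.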

Additional observations from a re-analysis of the deposited data

Results flagged for a closer look

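The effect of hBD3 in the presence of KLA differed from its effect in unstimulated cells for 1542 probes by the limma interaction test. Among the 5 largest falls this difference between effects was -4.74 for Il12a, -3.58 for Cish, -4.64 for Il1a, -3.37 for Lcn2 and -3.30 for Hdc on the log2 scale, each with an adjusted p from 0.000129 (Cish) to 0.0212 (Il1a). Among the 5 largest rises it was 3.45 for Cx3cr1, 3.20 for Zfp36l1, 2.34 for Sesn1, 2.50 for P2ry6 and 2.58 for Apobec1. These genes were picked by their difference with KLA, which is itself part of the difference between effects. The sign and size of the values, and the adjusted p-values, therefore follow in part from that choice. Il12a, Cish and Il1a were detected in no untreated array and in 1, 1 and 2 of 3 arrays of hBD3 alone, so their values are set against background, where a fall without KLA could not be measured, and Lcn2 and Hdc lay close to it. In cells without KLA the Il1a arrays read 5.95, 5.96 and 5.99 untreated and 9.26, 6.23 and 5.99 with hBD3, where replicate 1 lay apart from the others.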

How the results depend on the processing

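With median centring in place of quantile normalisation 1216 probes were called, 538 higher and 678 lower, with 425 in the interaction and 1335 genes left alone. The share of higher calls was then 44.2% against 50.1%. With KLA replicate 1 standing for the KLA group, an array whose own spread cannot be seen, 1763 probes were called, 867 higher and 896 lower, with 984 in the interaction and 1303 genes left alone. With neqc 1492 genes were left alone, and with an interval of 0.3 in place of 0.5 on either side 461 were. Leaving out any 1 array of KLA, of KLA plus hBD3 or of hBD3 replicate 1 (the last chosen after seeing the data) gave 2320 to 2978 called probes, 1151 to 1550 higher and 1169 to 1511 lower, 1036 to 1490 in the interaction and 1954 to 2347 genes left alone. The other settings kept each of these counts within 1.5 times. Whether same-numbered arrays came from 1 mouse is not given in the sources used here. Deviations of same-numbered KLA and KLA plus hBD3 arrays correlated at 0.17, -0.00 and -0.05, and not every array correlated best with its own number, whereas among untreated, hBD3 and KLA arrays the same-numbered correlations ran from 0.19 to 0.57. The pairing is therefore not settled. With the replicate number as a block 4161 probes were called, 2125 higher and 2036 lower, and 2307 in the interaction, and of the listed or leading genes none lost its call and 52 gained one. Of the 1994 genes called, 775 were called in the same direction with median centring, 1051 with KLA replicate 1 alone and 1779 with neqc, and none was called in the opposite direction in any setting run. Of 209 named genes 136 were called, and 112 of those passed in all 6 fits that left out 1 array of KLA or KLA plus hBD3. Among 223 called genes that were on a list or led the comparison, 171 passed in all 6 of these fits. Of the other 52, those described above are given with the highest adjusted p (limma) and the arrays whose omission lost the call. They were Cd40 (0.0995), Cd69 (0.154), Gbp2 (0.175) and Parp14 (0.15) without any 1 of the 6 arrays, Bcl2l2 (0.113), Dhcr7 (0.173) and Irs2 (0.111) without KLA replicate 1 or 2 or KLA plus hBD3 replicate 1, 2 or 3, P2ry1 (0.125) and Tab1 (0.0964) without KLA replicate 1 or 3 or KLA plus hBD3 replicate 1, 2 or 3 and Aif1 (0.114) without KLA replicate 1 or 2 or KLA plus hBD3 replicate 1 or 2. Further calls lost were those of Cdca8 (0.115), Cycs (0.1) and Dusp6 (0.0769) without KLA replicate 1 or 2 or KLA plus hBD3 replicate 1 or 3, Abcg1 (0.0921) and Nos2 (0.0789) without KLA replicate 1 or 2 or KLA plus hBD3 replicate 2 or 3, Lilrb4a (0.0872) and Mefv (0.132) without KLA replicate 1 or 3 or KLA plus hBD3 replicate 1 or 2 and C1qb (0.139), Ccl6 (0.11) and Rpl4 (0.156) without KLA replicate 1 or 3 or KLA plus hBD3 replicate 2 or 3. Likewise lost were those of Asns (0.0893) without KLA replicate 2 or 3 or KLA plus hBD3 replicate 1 or 2, Icosl (0.0847) and Pycard (0.129) without KLA replicate 2 or 3 or KLA plus hBD3 replicate 1 or 3, Fabp5 (0.0844) without KLA replicate 1 or 3 or KLA plus hBD3 replicate 2 and Ndufb8 (0.0666) without KLA replicate 1 or KLA plus hBD3 replicate 1 or 2. Calls also lost were those of Nr1h3 (0.082) without KLA replicate 1 or KLA plus hBD3 replicate 2 or 3, Vegfb (0.102) without KLA replicate 3 or KLA plus hBD3 replicate 1 or 2, C1qa (0.0675) without KLA replicate 1 or KLA plus hBD3 replicate 2 and Jak2 (0.0593) and Tlr7 (0.0588) without KLA replicate 1 or KLA plus hBD3 replicate 3. The calls lost besides were those of Socs5 (0.0527) without KLA replicate 1, Saa3 (0.0532) without KLA replicate 2, Gpr84 (0.0585) without KLA plus hBD3 replicate 1 and Mertk (0.0635) and Tirap (0.0546) without KLA plus hBD3 replicate 2. Others lost were those of Hspa1a (0.0545) without KLA plus hBD3 replicate 3. Of the same 223 calls 136 passed with median centring, with 31 of 127 falls and 56 of 96 rises lost. Averaging all detected probes of a gene moved 29 of 209 named genes by more than the replicate SD and reversed no called one. The BeadChip of each array was not in the headings, so a chip block was not run. The cause of these changes was not tested. Dim genes are read near the detection floor, where a change has only a lower bound.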
